A study of Peniophora incarnata with 12 samples.

Results

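The transcriptome of the white-rot fungus Peniophora incarnata, strain T-7, was compared between mycelium grown on powdered Chinese fir wood and mycelium grown on PDA, a potato dextrose agar that served as the control. All genes with 1 FPKM (fragments per length of gene and size of library) or more in at least 3 of the 6 libraries entered, which left 13446 of the 16059 genes in the deposited table. Both groups held 3 cultures of the wild type strain, described as biological replicates, that stood still in the dark for 30 days at 28 °C and 75% relative humidity. The wood was the sole solid substrate, as a 60-mesh powder of about 250 µm, and the cultures on PDA carried no wood. A single strain and a single time point limit what the comparison stands for, and the substrates differ in much else besides lignin. The series also held 3 cultures each on poplar wood and rice straw, which are used below only for genes named here.

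White-rot fungi break down lignin with secreted oxidases and peroxidases and open the polysaccharides of the wall with glycoside hydrolases. Laccases oxidise phenols with oxygen, class II peroxidases use hydrogen peroxide, and intracellular cytochrome P450 enzymes and transferases handle the aromatic fragments. Chinese fir is a conifer, and conifer wood has a guaiacyl lignin and a mannan-rich hemicellulose, whereas PDA supplies free glucose and starch. Gene names are those of the deposited annotation, which takes them from described proteins of other species, so the roles given here are known mostly from other fungi. Where several genes carry one name, reads of near-identical copies may have been split between them, and the counting settings are not stated in the sources used here.

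Totals of 31132066, 28171813 and 23936783 reads on fir wood and 24075495, 24766171 and 25570109 on PDA lay behind the FPKM values. At the median gene length, 1 FPKM stood for 33.8 to 44.0 reads on fir wood and 34.0 to 36.1 reads on PDA. Libraries of one group correlated at 0.965 to 0.987 on fir wood and 0.969 to 0.988 on PDA, and libraries of different groups at 0.833 to 0.851 (Pearson's r across genes on the log2 scale, as a description). Replicate 1 on fir wood and replicate 2 on PDA could be written nearly as weighted sums of the other libraries of their group (chi-square per gene 5.87 and 4.79), which held less well for the other 4 libraries (29.1 to 58.4). They are called the intermediate libraries below, and counts are also given without them, with 2 libraries a side. Values of single genes are listed in the order of replicates 1, 2 and 3.

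The measured RNA was concentrated in fewer genes on fir wood. RNA of whole mycelium cannot tell fewer cells of one state apart from less RNA per cell. The 10 most abundant genes of each library held 13.9 to 14.7% of the summed FPKM on fir wood and 4.67 to 5.48% on PDA, and the groups did not overlap. The 100 most abundant held 37.9 to 39.1% on fir wood and 21.3 to 22.1% on PDA. It took 219 to 242 genes to reach 50% of the sum on fir wood and 607 to 647 genes on PDA. FPKM values are relative to the total of the library. As deposited, the median gene had a log2 fold change of -0.53. After median-of-ratios scaling, which sets the typical gene equal between libraries, it was -0.02, a shift of 0.51. Counts below are therefore given on both scales, and "rose" and "fell" mean an adjusted p below 0.05 in limma with a change of at least 1 on the log2 scale, with the FPKM as deposited unless the scaled values are named.

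**Figure D1:**
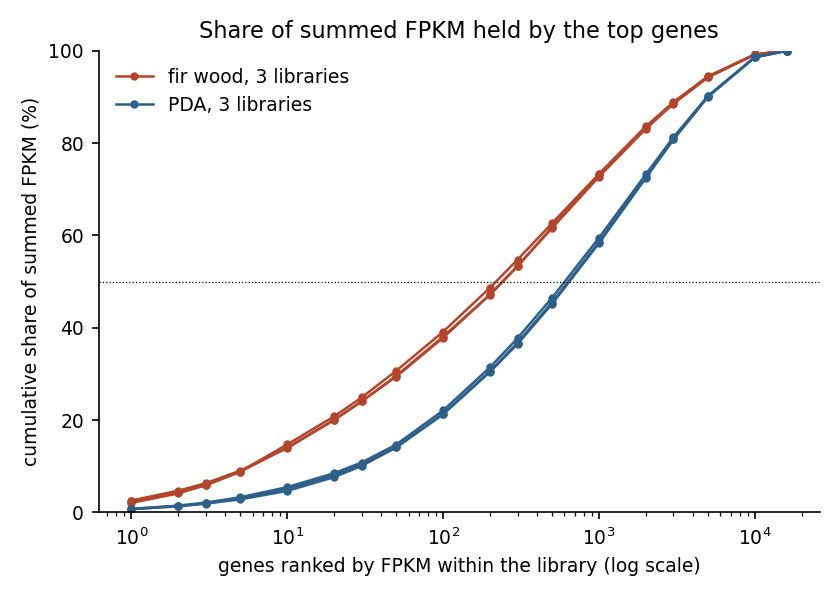
Cumulative share of summed FPKM (%, vertical axis) against the number of top genes of each library (log axis), with 1 line per library. The 3 fir wood lines lie above the 3 PDA lines, and cross the dotted 50% line at 219 to 242 genes against 607 to 647.

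As deposited, 849 genes (6.31% of those tested) rose on fir wood and 3506 (26.1%) fell. After scaling, 1695 (12.6%) rose and 1582 (11.8%) fell. All 849 genes that rose as deposited also rose after scaling, all 1582 that fell after scaling had fallen as deposited, and 0 genes were called in opposite directions. With the intermediate libraries left out, 763 (5.67%) rose and 3363 (25.0%) fell, of which 744 and 3207 were among the calls above. Falls were more often large: 802 genes fell by at least 2 on the log2 scale and 280 rose by as much, and 89 fell and 45 rose by at least 4. Genes with a description made up 56.0% of the tested genes, 58.9% of those that fell and 48.1% of those that rose.

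**Figure D2:**
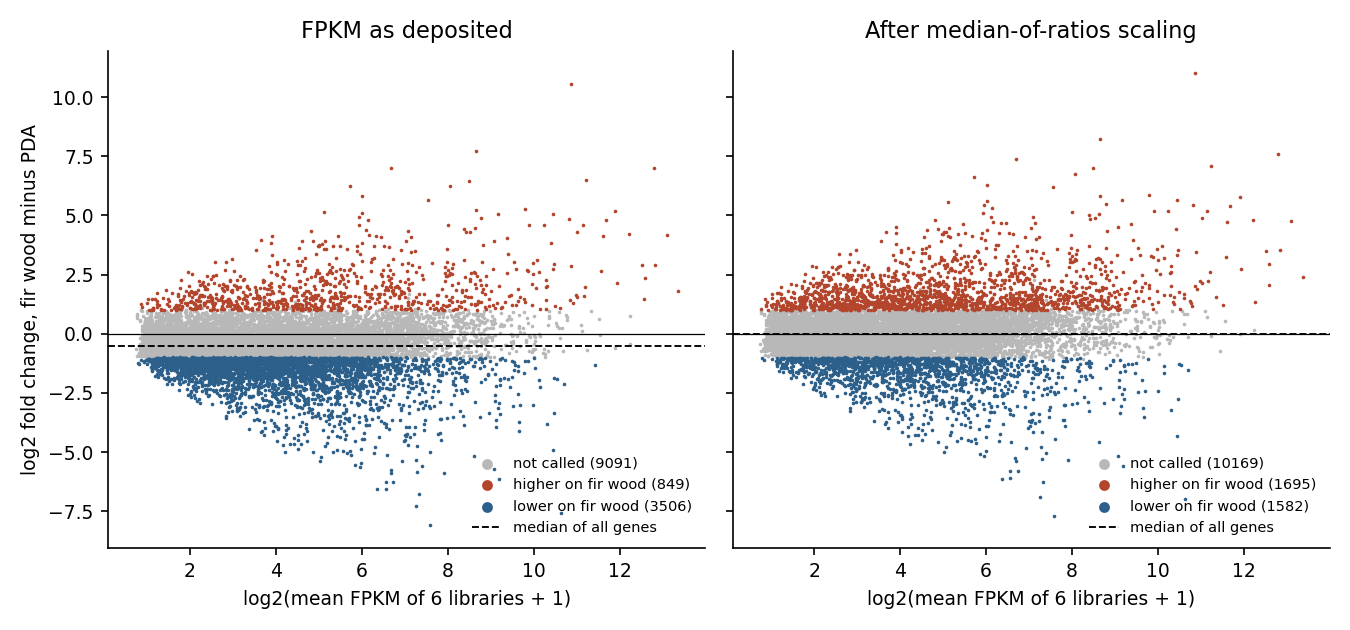
Log2 fold change (fir wood minus PDA, vertical axis) against the log2 of the mean FPKM of the 6 libraries plus 1, with 1 point per tested gene, as deposited (left) and after scaling (right). The dashed median lies at -0.53 on the left and -0.02 on the right, and the calls change from 849 higher and 3506 lower to 1695 and 1582.

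The most abundant genes on fir wood were mostly genes that the annotation does not describe. Of the 10 genes with the highest mean FPKM on fir wood, 1 had a description and all 10 rose on both scales. Those 10 genes made up 14.0, 14.7 and 13.5% of the summed FPKM on fir wood and 2.16, 2.17 and 2.16% on PDA. Undescribed genes as a whole held 51.6, 52.1 and 51.3% on fir wood and 38.8% in each PDA library. The individual genes named here, other than A04916, A10471 and A04825, were chosen after their values were seen. The gene A05787 had 85.5, 108 and 134 FPKM on PDA and 14376, 10601 and 17372 FPKM on fir wood. It was among the 10 most abundant genes on fir wood (log2 fold change 6.995, SE 0.23, limma adjusted p = 2.27e-06). A01143 had 1037, 885 and 817 FPKM on PDA and 16605, 12271 and 21038 FPKM on fir wood (log2 fold change 4.16, SE 0.22, limma adjusted p = 1.10e-05). A03057 had 173, 209 and 230.1 FPKM on PDA and 7491, 6609 and 8251 FPKM on fir wood (log2 fold change 5.19, SE 0.15, limma adjusted p = 1.48e-06). The groups did not overlap for any of these 3 genes. Some of the abundant genes were already high on PDA: A15256 had 4587, 4599 and 4654 FPKM on PDA and 16352, 19900.2 and 13146 FPKM on fir wood (log2 fold change 1.81, SE 0.18, limma adjusted p = 1.53e-04). The largest rise of all belonged to A04916, with 1.59, 1.36 and 1.13 FPKM on PDA and 3709, 2215 and 5293 FPKM on fir wood (log2 fold change 10.55, SE 0.29, limma adjusted p = 1.44e-06), followed among undescribed genes by A10471 (log2 fold change 7.71) and A04825 (log2 fold change 7.01).

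Among described genes the largest rises mixed redox enzymes, a sugar carrier, a glutaminase and a peptidase. The P450 gene CYP208 (A07916) had 0.618, 1.12 and 1.82 FPKM on PDA and 129.9, 79.7 and 167 FPKM on fir wood (log2 fold change 5.83, SE 0.31, limma adjusted p = 1.12e-05). Its neighbour in the gene numbering with the same name, A07914, was far more abundant, with 74.3, 93.05 and 120.1 FPKM on PDA and 2317, 2711 and 1908 FPKM on fir wood (log2 fold change 4.59, SE 0.21, limma adjusted p = 6.59e-06). Neither gene's groups overlapped. The gene named ppt1 (A05217), after an enzyme that adds a prenyl chain to hydroxybenzoate in ubiquinone synthesis, had 3.74, 3.19 and 4.15 FPKM on PDA and 119, 71.8 and 158 FPKM on fir wood (log2 fold change 4.58, SE 0.27, limma adjusted p = 1.87e-05). The gene gtaA (A17318), a glutaminase that releases ammonia from glutamine, had 5.004, 5.51 and 5.44 FPKM on PDA and 132, 121 and 139 FPKM on fir wood (log2 fold change 4.38, SE 0.11, limma adjusted p = 9.76e-07). Fir wood replicates of gtaA lay close together, whereas those of CYP208 A07916 spread from 79.7 to 167. Aspergillopepsin-2 (A01411), an acid peptidase, had 9.13, 10.99 and 9.36 FPKM on PDA and 274, 95.8 and 409 FPKM on fir wood (log2 fold change 4.36, SE 0.48, limma adjusted p = 2.31e-04), and its lowest fir wood library was still above all PDA libraries. Without that library, replicate 2, the log2 fold change was 4.96. The most abundant described gene on fir wood carried the name YVH1 (A07942), a dual-specificity protein phosphatase, with 330.4, 518 and 667 FPKM on PDA and 8886, 10880.4 and 7298 FPKM on fir wood (log2 fold change 4.19, SE 0.28, limma adjusted p = 2.79e-05). Genes A18841, A18842, A05985 and A05986, all named TVP38 after a Golgi membrane protein, rose by 4.14 to 5.16 on the log2 scale. Fir wood replicate 3 was the lowest of the 3 fir wood libraries for all 4 of them.

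Among the laccases, enzymes that oxidise phenols, more genes rose than fell. Of 25 tested laccases and other multicopper oxidases, 10 rose and 2 fell as deposited and 11 rose and 1 fell after scaling, with a median log2 fold change of -0.1001 as deposited and 0.24 after scaling. Their summed level was 1950.8 ± 424 FPKM on fir wood and 685 ± 2.90 on PDA (mean ± SD, n = 3). LCC2 (A15469) had 2.796, 7.79 and 10.1 FPKM on PDA and 359, 445 and 297 FPKM on fir wood (log2 fold change 5.66, SE 0.39, limma adjusted p = 3.17e-05), so a gene near the floor on PDA was among the higher laccases on wood. A second LCC2 (A06365) had 25.4, 38.3 and 41.8 FPKM on PDA and 455, 720.02 and 226 FPKM on fir wood (log2 fold change 3.57, SE 0.41, limma adjusted p = 2.75e-04). LCC4 (A17335) had 8.81, 9.28 and 7.86 FPKM on PDA and 162, 156 and 178 FPKM on fir wood (log2 fold change 4.11, SE 0.11, limma adjusted p = 1.37e-06), and its replicates varied least. The groups did not overlap for any of the 3. POX2 (A15535), LAC (A05216), LCC2 (A15468) and LCC5 (A14336, A13006) rose by 3.53, 3.39, 2.61, 2.55 and 2.09 on the log2 scale. The family did not move as one. LAC (A13432) had 157, 127 and 87.6 FPKM on PDA and 37.3, 36.6 and 35.03 FPKM on fir wood and fell (log2 fold change -1.701, SE 0.204, limma adjusted p = 3.46e-04), and LCC2 (A15534) fell with a log2 fold change of -1.45 as deposited but was not called after scaling (-0.89). The call of LCC5 (A13006) was lost without any single fir wood library or PDA replicate 2, and its log2 fold change was 2.81 without PDA replicate 1 and 1.17 without PDA replicate 3. The call of LCC2 (A15534) was lost without the intermediate libraries. The number of laccases that fell was 4 without fir wood replicate 2 and 1 with the intermediate libraries left out.

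The class II peroxidases that rose did so from low levels. Of 18 tested genes, 5 rose and 1 fell as deposited and 10 rose and 1 fell after scaling, with a median log2 fold change of 0.802 as deposited and 1.16 after scaling, and their summed level was 89.4 ± 6.81 FPKM on fir wood and 60.0 ± 9.27 on PDA. The gene mnp3 (A12095), a manganese peroxidase and the most abundant of those that rose, had 4.18, 5.27 and 5.17 FPKM on PDA and 9.83, 11.3 and 12.3 FPKM on fir wood (log2 fold change 1.05, SE 0.14, limma adjusted p = 5.69e-04). Its change dropped below the fold limit without fir wood replicate 3 (0.98) and without PDA replicate 1 (0.96). The other mnp3 genes that rose (A18681, A14910, A13256) and vpl1 (A19457), a versatile peroxidase, rose by 2.25, 1.74, 1.43 and 1.87 on the log2 scale. A further vpl1 gene (A14932) fell, with 10.8, 9.402 and 11.4 FPKM on PDA and 2.62, 2.9997 and 2.28 FPKM on fir wood (log2 fold change -1.67, SE 0.14, limma adjusted p = 6.98e-05). All of these genes stayed far below the leading laccases. The dye-decolorizing peroxidase dyp1 (A14508) fell as well, with 27.1, 49.7 and 68.1 FPKM on PDA and 3.43, 5.38 and 3.95 FPKM on fir wood (log2 fold change -3.15, SE 0.32, limma adjusted p = 1.75e-04).

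A list of 26 genes held enzymes that supply hydrogen peroxide and related enzymes found by the same words. Of these, 3 rose and 4 fell as deposited and 5 rose and 1 fell after scaling. Without fir wood replicate 3, 2 instead of 4 fell. Pyranose 2-oxidase (p2ox, A18329), which makes peroxide from sugars, had 36.3, 46.7 and 51.02 FPKM on PDA and 222, 193 and 254 FPKM on fir wood (log2 fold change 2.2997, SE 0.16, limma adjusted p = 3.83e-05). A GMC oxidoreductase (A02379), of the family of aryl-alcohol and glucose oxidases, had 30.2, 33.1 and 36.9 FPKM on PDA and 236, 122 and 334 FPKM on fir wood (log2 fold change 2.64, SE 0.34, limma adjusted p = 4.60e-04). Pyranose dehydrogenase 3 (pdh3, A02730), by name a dehydrogenase and not a peroxide-forming oxidase, was the most abundant that fell. It went from 19.3 ± 5.49 to 6.57 ± 1.03 FPKM as deposited and was not called after scaling (log2 fold change -0.85).

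**Figure D3:**
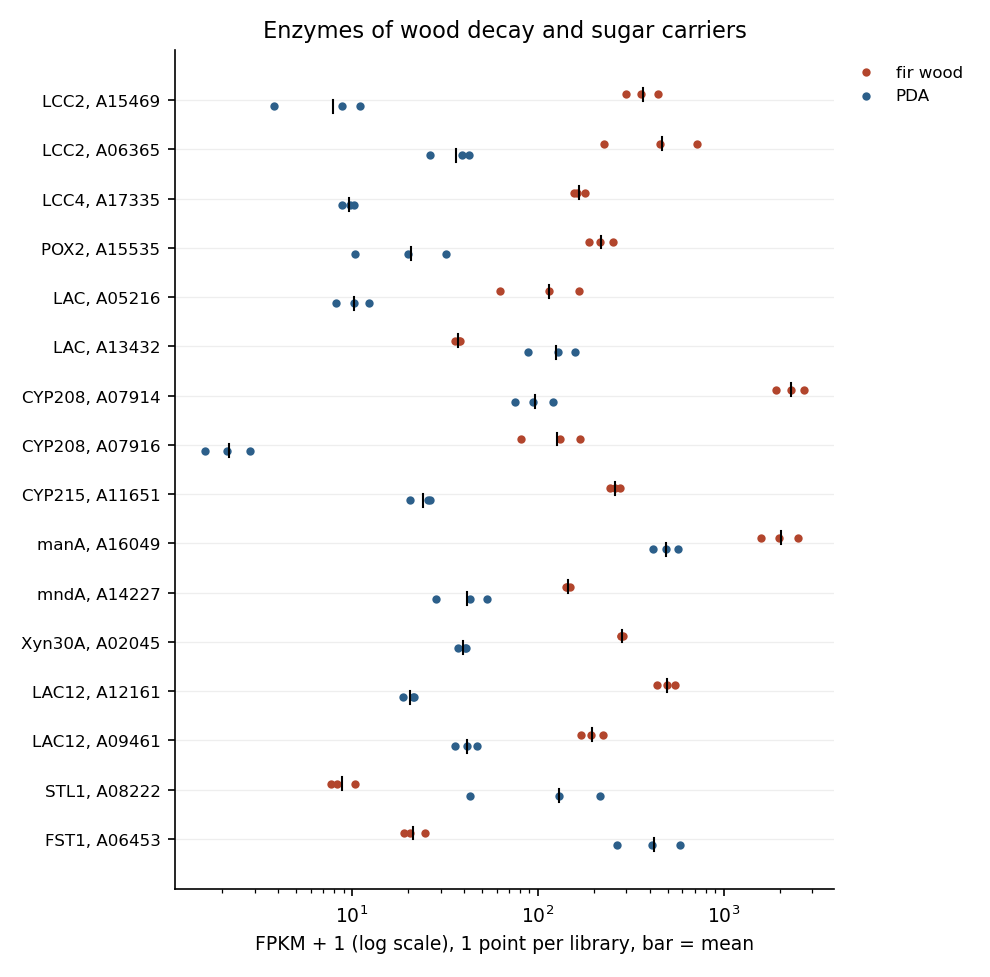
FPKM plus 1 (log axis) of 16 genes for laccases, P450 enzymes, hemicellulases and sugar carriers, with 1 point per library and a bar at the group mean. Fir wood points lie to the right for the first 14 genes except LAC A13432, and to the left for the carriers STL1 and FST1.

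P450 genes moved in both directions. As deposited 11.8% rose and 28.8% fell (6.31 and 26.1% of all tested genes). After scaling 17.0% rose and 14.4% fell (12.6 and 11.8% of all tested genes), so the shares of falls lay near those of all genes. Of 153 tested genes, 18 rose and 44 fell as deposited and 26 rose and 22 fell after scaling, with a median log2 fold change of -0.41 as deposited and 0.09 after scaling. Beside both CYP208 genes above, CYP215 (A11651) rose, with 19.4, 24.6 and 25.2 FPKM on PDA and 258, 274 and 245 FPKM on fir wood (log2 fold change 3.44, SE 0.13, limma adjusted p = 3.27e-06), as did a CYP215 copy (A11650, log2 fold change 2.31) and a further CYP208 (A04997, log2 fold change 1.27). CYP124 (A02164) had 193, 146 and 114 FPKM on PDA and 49.6, 57.7 and 43.1 FPKM on fir wood and was the most abundant gene of those that fell (log2 fold change -1.55, and -0.96 and not called after scaling). Of 25 tested glutathione transferases, which conjugate reactive compounds to glutathione, 0 rose and 13 fell as deposited and 3 rose and 8 fell after scaling, with a median log2 fold change of -1.01 as deposited and -0.45 after scaling. The transferase gst2 (A18278) had 158, 225 and 278 FPKM on PDA and 23.5, 31.1 and 22.5 FPKM on fir wood (log2 fold change -3.03, SE 0.23, limma adjusted p = 4.65e-05). A transferase-like gene named ustS (A16531) had 36.3, 48.7 and 47.7 FPKM on PDA and 2.16, 2.16 and 2.75 FPKM on fir wood (log2 fold change -3.75, SE 0.16, limma adjusted p = 5.06e-06).

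Genes for breaking down aromatic compounds fell at a higher share than all tested genes on both scales. Of 27 tested, 1 rose and 12 fell as deposited and 2 rose and 11 fell after scaling, with a median log2 fold change of -0.897 as deposited and -0.35 after scaling. A phenol hydroxylase (A12464), which adds a hydroxyl group to a phenol ring, had 73.2, 59.3 and 44.2 FPKM on PDA and 11.7, 13.2 and 8.63 FPKM on fir wood (log2 fold change -2.29, SE 0.22, limma adjusted p = 1.32e-04). The ring-cleaving dioxygenase hqdA (A01082) had 64.6, 56.2 and 48.5 FPKM on PDA and 16.2, 16.9 and 14.02 FPKM on fir wood (log2 fold change -1.78, SE 0.14, limma adjusted p = 5.71e-05). The phenylalanine ammonia-lyase genes named str11 (A09101, A09505) fell by 2.28 and 2.76 on the log2 scale. The single riser was a tyrosinase, a copper enzyme that oxidises phenols on the way to melanin. That gene, tyr1 (A01304), had 456, 356 and 297 FPKM on PDA and 2445, 2293 and 2487 FPKM on fir wood (log2 fold change 2.72, SE 0.17, limma adjusted p = 2.15e-05). The next gene in the numbering, also named tyr1 (A01305), moved the other way, with 1037, 927 and 847 FPKM on PDA and 249.9, 323 and 171 FPKM on fir wood (log2 fold change -1.96, SE 0.23, limma adjusted p = 3.07e-04), so the order of the pair was exchanged between substrates. The FAD-dependent monooxygenase dbaH (A04413) had 1400.5, 1176 and 891 FPKM on PDA and 15.996, 16.6 and 12.6 FPKM on fir wood (log2 fold change -6.16, SE 0.19, limma adjusted p = 1.66e-06), one of the largest falls of an abundant gene.

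Hemicellulases rose at a higher share than all tested genes on both scales. Of 74 tested hemicellulases and esterases, 15 rose and 6 fell as deposited and 23 rose and 3 fell after scaling, with a median log2 fold change of 0.13 as deposited and 0.57 after scaling. Their summed level was 3082 ± 531 FPKM on fir wood and 1098 ± 119 on PDA. On fir wood most of it was manA (A16049), a mannanase that cuts within mannan chains, with 414, 489.99 and 569 FPKM on PDA and 1985, 2527 and 1591 FPKM on fir wood (log2 fold change 2.03, SE 0.201, limma adjusted p = 1.49e-04). The beta-mannosidase mndA (A14227), which removes the terminal mannose, had 27.2, 42.3 and 52.3 FPKM on PDA and 141, 147 and 142 FPKM on fir wood (log2 fold change 1.84, SE 0.22, limma adjusted p = 3.48e-04), and a second mndA (A10573) rose by 1.01 on the log2 scale, a call lost without fir wood replicate 3 (0.99) or PDA replicate 1 (0.79). The xylanase Xyn30A (A02045) had 36.1, 39.6 and 40.2 FPKM on PDA and 285, 278 and 281 FPKM on fir wood (log2 fold change 2.83, SE 0.09, limma adjusted p = 2.32e-06), with fir wood libraries within a few FPKM of each other. A beta-galactosidase (lacB, A18359) and a glucuronoyl methylesterase (A15368), which cleaves the ester between glucuronoxylan and lignin, rose by 2.03 and 1.52 on the log2 scale. The alpha-mannosidase ams1 (A17557), a vacuolar enzyme in yeast, fell with 31.1, 28.4 and 28.7 FPKM on PDA and 7.21, 5.53 and 7.99 FPKM on fir wood (log2 fold change -1.95, SE 0.15, limma adjusted p = 4.66e-05).

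Of 31 tested cellulases, 6 rose and 4 fell as deposited and 8 rose and 1 fell after scaling, with a median log2 fold change of 0.21 as deposited and 0.59 after scaling, and 4 rose without the intermediate libraries. Their summed level was 262 ± 10.1 FPKM on fir wood and 246 ± 2.25 on PDA. The endoglucanase eglB (A09811) had 19.7, 14.3 and 8.68 FPKM on PDA and 45.1, 34.1 and 44.98 FPKM on fir wood (log2 fold change 1.53, SE 0.28, limma adjusted p = 0.00224), and the beta-glucosidase bglL (A13729) fell from 24.002 ± 4.65 to 1.95 ± 0.3196 FPKM (log2 fold change -3.07, SE 0.17, limma adjusted p = 1.47e-05). None of the 5 tested lytic polysaccharide monooxygenases named Cel61a, copper enzymes that nick crystalline cellulose, was called on either scale. The most abundant, A16833, had 85.7, 107 and 127 FPKM on PDA and 81.7, 80.97 and 81.7 FPKM on fir wood (log2 fold change -0.36, SE 0.15, limma adjusted p = 0.0657), and these groups did not overlap although the change was small. A00616, A16832 and A09517 had an adjusted p below 0.05 in limma with changes short of the fold limit (log2 fold change -0.54, -0.94 and -0.98). At an unadjusted p below 0.05 4 of the 5 were lower, voom on reads worked back from the FPKM called 1, and 1 fell without fir wood replicate 3, PDA replicate 1 or PDA replicate 3, with array weights or with a pseudocount of 0.1. TPM gave 2 that fell. Of all 13446 tested genes, 7320 were lower in limma at an adjusted p below 0.05 with no fold limit, a stricter limit than the unadjusted p. Voom called 2043 of all tested genes lower, and 4311 fell with TPM. After scaling the log2 fold changes of A16833 and A00616 were above 0 (0.22 and 0.02).

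More sugar carriers fell than rose. Of 27 tested, 4 rose and 14 fell as deposited and 4 rose and 9 fell after scaling, with a median log2 fold change of -1.05 as deposited and -0.52 after scaling. As deposited 14.8% rose and 51.9% fell (6.31 and 26.1% of all tested genes), so both shares lay above those of all genes. After scaling 14.8% rose and 33.3% fell (12.6 and 11.8% of all tested genes). All 4 that rose as deposited carried the name LAC12, a lactose permease of yeast in the same superfamily as other disaccharide carriers, although 2 other LAC12 genes fell. The first LAC12 (A12161) had 20.5, 20.3 and 17.8 FPKM on PDA and 493, 438 and 549 FPKM on fir wood (log2 fold change 4.58, SE 0.12, limma adjusted p = 1.37e-06). A further LAC12 (A09461) had 45.9, 40.6 and 34.9 FPKM on PDA and 193, 169 and 224 FPKM on fir wood (log2 fold change 2.24, SE 0.15, limma adjusted p = 2.89e-05). With fir wood replicate 2 left out, 2 rose. The myo-inositol transporter gene FST1 (A06453) had 580.5, 412 and 265 FPKM on PDA and 19.4, 23.7 and 18.1 FPKM on fir wood (log2 fold change -4.23, SE 0.27, limma adjusted p = 2.59e-05). The gene STL1 (A08222), a glycerol and sugar symporter of yeast, had 214, 129 and 42.1 FPKM on PDA and 7.31, 9.3998 and 6.72 FPKM on fir wood (log2 fold change -3.61, SE 0.53, limma adjusted p = 8.97e-04). Both falling carriers were highest in PDA replicate 1 and lowest in PDA replicate 3, and neither gene's groups overlapped. Without PDA replicate 3 the log2 fold change of STL1 was -4.26.

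Genes for nitrogen supply moved in both directions. Of 48 tested carriers of peptides and amino acids, 9 rose and 10 fell as deposited and 13 rose and 8 fell after scaling. The proline permease prnB (A03975) had 1035, 987 and 986 FPKM on PDA and 2655, 3021 and 2391 FPKM on fir wood (log2 fold change 1.42, SE 0.13, limma adjusted p = 1.03e-04), and the peptide transporter ptr2 (A01680) had 149, 167 and 179 FPKM on PDA and 435, 437 and 427 FPKM on fir wood (log2 fold change 1.39, SE 0.11, limma adjusted p = 5.24e-05). The dicarboxylic amino acid permease DIP5 (A10761), which takes up glutamate and aspartate in yeast, fell with 573, 538 and 498 FPKM on PDA and 141, 133 and 135 FPKM on fir wood (log2 fold change -1.97, SE 0.101, limma adjusted p = 1.05e-05). Of 139 tested peptidases, 15 rose and 32 fell as deposited and 22 rose and 15 fell after scaling, with both shares of falls near those of all tested genes. The aspartic protease pepA (A00467), a secreted acid enzyme, had 40.9, 66.3 and 85.3 FPKM on PDA and 490.003, 593 and 386 FPKM on fir wood (log2 fold change 2.95, SE 0.28, limma adjusted p = 1.27e-04). A second Aspergillopepsin-2 (A13890), a serine carboxypeptidase (A01865) and the aspartic protease pr1 (A11130) rose by 3.65, 3.94 and 3.16 on the log2 scale. The L-amino-acid oxidase lox (A14260), which releases ammonia and peroxide from amino acids, had 312, 382 and 429 FPKM on PDA and 1631, 1565 and 1649.5 FPKM on fir wood (log2 fold change 2.12, SE 0.14, limma adjusted p = 2.86e-05).

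More genes for the breakdown of individual amino acids fell than rose. Of 33 tested, 2 rose and 18 fell as deposited and 3 rose and 13 fell after scaling, with a median log2 fold change of -1.17 as deposited and -0.63 after scaling. As deposited 6.06% rose and 54.5% fell (6.31 and 26.1% of all tested genes). After scaling 9.09% rose and 39.4% fell (12.6 and 11.8% of all tested genes). Their summed level was nonetheless higher on fir wood, at 2662 ± 67.6 FPKM against 2047 ± 22.5 on PDA. The gene pruA (A02934), which oxidises the proline intermediate pyrroline carboxylate, had 159, 162 and 167 FPKM on PDA and 35.003, 33.5 and 40.5 FPKM on fir wood (log2 fold change -2.14, SE 0.11, limma adjusted p = 9.72e-06), although the proline permease had risen. Ornithine aminotransferase (otaA, A15552), the branched-chain aminotransferase BAT2 (A04566) and the copper amine oxidase cao1 (A05711) fell by 2.09, 2.91 and 3.47 on the log2 scale. Arginase (aga-1, A15859), which splits arginine into urea and ornithine, was one of the 2 that rose (log2 fold change 1.15).

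Some genes of methanol oxidation were among the largest falls in the comparison. Alcohol oxidase turns methanol into formaldehyde and peroxide in peroxisomes, a glutathione-dependent dehydrogenase and a hydrolase carry formaldehyde on to formate, and formate dehydrogenase oxidises formate to CO2. The alcohol oxidase genes named AOD1 were near the floor on fir wood. A10974 had 129.5, 163 and 195 FPKM on PDA and 0.654, 0.559995 and 0.914 FPKM on fir wood (log2 fold change -6.56, SE 0.17, limma adjusted p = 1.37e-06), and A05729 had 155, 184 and 216 FPKM on PDA and 1.05, 1.02 and 0.834 FPKM on fir wood (log2 fold change -6.55, SE 0.15, limma adjusted p = 9.76e-07). Another alcohol oxidase, AOX1 (A02976), had 68.003, 77.6 and 91.96 FPKM on PDA and 46.96, 35.2 and 58.5 FPKM on fir wood and was not called (log2 fold change -0.76, SE 0.202, limma adjusted p = 0.0126). The formate dehydrogenase FDH1 (A02035) had 322, 331 and 333 FPKM on PDA and 4.98, 6.89 and 5.55 FPKM on fir wood (log2 fold change -5.61, SE 0.13, limma adjusted p = 9.76e-07). A second FDH1 (A16047), with 46.3, 26.8 and 12.3 FPKM on PDA and 11.2, 12.4 and 12.9 FPKM on fir wood, overlapped between the groups and was not called, except without PDA replicate 3 (log2 fold change -1.47). In between these steps, S-(hydroxymethyl)glutathione dehydrogenase (A07864) had 414, 379 and 339.7 FPKM on PDA and 121, 135 and 104 FPKM on fir wood (log2 fold change -1.65, SE 0.14, limma adjusted p = 7.12e-05). S-formylglutathione hydrolase (A04205) had 61.002, 55.7 and 48.4 FPKM on PDA and 12.2, 5.82 and 13.01 FPKM on fir wood (log2 fold change -2.37, SE 0.28, limma adjusted p = 3.03e-04). Peroxisomal catalase (CAT1, A14206), which destroys the peroxide made by such oxidases, had 239, 234 and 239 FPKM on PDA and 4.73, 4.96 and 4.68 FPKM on fir wood (log2 fold change -5.36, SE 0.09, limma adjusted p = 7.09e-07). The replicates of CAT1 lay within a few FPKM of their mean on both substrates. The dihydroxyacetone kinase genes dak1 (A08616, A02194, A15965) and dak2 (A07363), which take up the other product of formaldehyde fixation in methylotrophic yeasts, fell by 1.77, 2.48, 2.49 and 2.99 on the log2 scale.

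**Figure D4:**
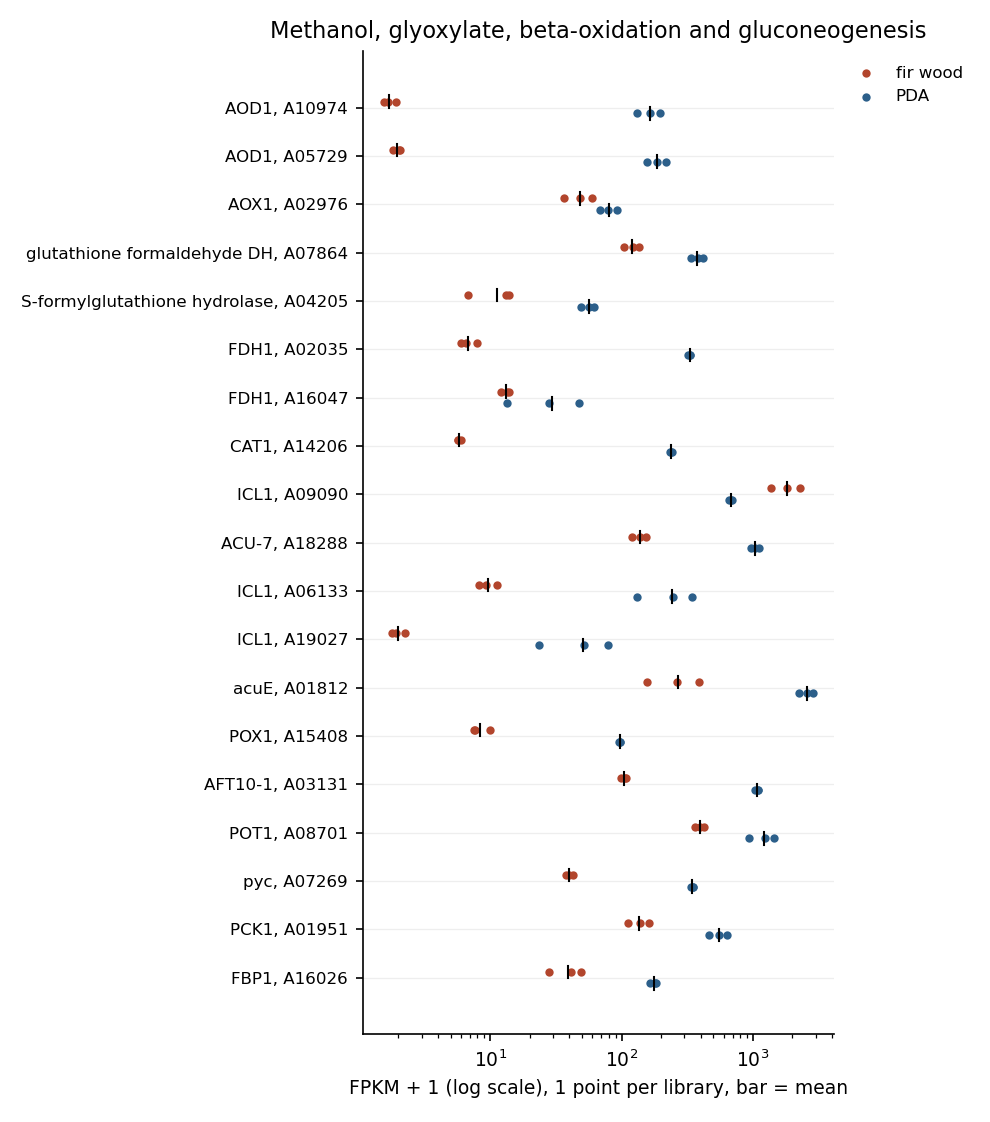
FPKM plus 1 (log axis) of 19 genes of methanol and formate oxidation, the glyoxylate cycle, beta-oxidation and gluconeogenesis, with 1 point per library and a bar at the group mean. Fir wood points lie to the left of the PDA points for all genes but ICL1 A09090, which lies to the right, while FDH1 A16047 overlaps.

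The glyoxylate cycle lets cells build sugar from acetate by bypassing the decarboxylating steps of the citrate cycle. Of the 23 tested genes of the glyoxylate cycle, oxalate, formate and other one-carbon steps, 1 rose and 15 fell as deposited and 1 rose and 13 fell after scaling, with a median log2 fold change of -1.77 as deposited and -1.23 after scaling. The exception was the isocitrate lyase ICL1 (A09090), with 654, 691 and 686 FPKM on PDA and 1829.7, 2284 and 1381 FPKM on fir wood (log2 fold change 1.404, SE 0.19, limma adjusted p = 5.62e-04). The other 3 isocitrate lyases fell. ACU-7 (A18288) had 968, 1038 and 1119 FPKM on PDA and 138, 119.7 and 152 FPKM on fir wood (log2 fold change -2.93, SE 0.13, limma adjusted p = 5.44e-06), and the ICL1 genes A06133 and A19027 had log2 fold changes of -4.55 and -4.54, from PDA means of 241 ± 108 and 50.2 ± 27.4 FPKM. Malate synthase (acuE, A01812), the next enzyme of the cycle and the only gene of that name, had 2253, 2570.1 and 2851 FPKM on PDA and 265, 385 and 155 FPKM on fir wood (log2 fold change -3.34, SE 0.31, limma adjusted p = 1.16e-04). ICL1 A09090 was the most abundant of these 5 genes on fir wood, and acuE was the most abundant of them on PDA. Acetyl-CoA synthetase (ACS-1, A00011), which activates acetate, had 101, 85.1 and 69.2 FPKM on PDA and 13.2, 11.7 and 13.8 FPKM on fir wood (log2 fold change -2.62, SE 0.16, limma adjusted p = 1.93e-05). The 3 genes named acu-15 (A03817, A11357, A15776), after the Neurospora activator of acetate use, fell by 1.68, 1.69 and 1.76 on the log2 scale. None of the 4 tested oxalate decarboxylases named here (A11642, A00629, A01043, A01045) was called, and each had a mean below 10 FPKM on both substrates.

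Many genes of fatty acid breakdown fell on both scales. Of 35 tested genes of beta-oxidation, 0 rose and 22 fell as deposited and 1 rose and 17 fell after scaling, with a median log2 fold change of -1.59 as deposited and -0.996 after scaling, and 22 fell without the intermediate libraries. The acyl-CoA dehydrogenase AFT10-1 (A03131) had 1039, 1102 and 1096 FPKM on PDA and 105, 107 and 98.8 FPKM on fir wood (log2 fold change -3.37, SE 0.096, limma adjusted p = 1.48e-06). The acyl-CoA oxidase POX1 (A15408), which opens the peroxisomal pathway, had 96.1, 96.3 and 94.5 FPKM on PDA and 6.49, 8.95 and 6.66 FPKM on fir wood (log2 fold change -3.54, SE 0.14, limma adjusted p = 3.70e-06). The peroxisomal thiolase POT1 (A08701), which closes each round, had 926, 1241 and 1453 FPKM on PDA and 397, 361 and 425 FPKM on fir wood (log2 fold change -1.59, SE 0.18, limma adjusted p = 2.60e-04) and was just short of the fold limit after scaling (log2 fold change -0.996). Of the 12 peroxins, which build peroxisomes and import their enzymes, 0 rose and 9 fell as deposited and 0 rose and 5 fell after scaling. PEX13 (A14662), part of the import pore, had 72.4, 83.9 and 95.2 FPKM on PDA and 16.4, 19.4 and 17.4 FPKM on fir wood (log2 fold change -2.17, SE 0.13, limma adjusted p = 2.09e-05). The deposited pathway names gave similar counts: of 88 tested genes of the peroxisome pathway 46 fell and 3 rose, and of 35 of fatty acid degradation 21 fell and 0 rose.

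Genes of central carbon metabolism were among those that fell. Of 23 tested genes of glycolysis and gluconeogenesis, 0 rose and 13 fell as deposited and 0 rose and 8 fell after scaling, with a median log2 fold change of -1.37 as deposited and -0.78 after scaling. Pyruvate carboxylase (pyc, A07269), which makes oxaloacetate from pyruvate, had 351, 347 and 338 FPKM on PDA and 38.6, 36.6 and 41.5 FPKM on fir wood (log2 fold change -3.12, SE 0.096, limma adjusted p = 1.68e-06), and its second copy (A08534) fell by 3.17. Phosphoenolpyruvate carboxykinase (PCK1, A01951) had 464, 553 and 629.6 FPKM on PDA and 136, 110.5 and 161 FPKM on fir wood (log2 fold change -2.01, SE 0.18, limma adjusted p = 9.05e-05). Fructose bisphosphatase (FBP1, A16026), specific to gluconeogenesis, had 163, 181 and 180.3 FPKM on PDA and 39.9, 26.98 and 48.3 FPKM on fir wood (log2 fold change -2.19, SE 0.204, limma adjusted p = 1.17e-04). Both enolase genes (A13643, A03835) fell, by 2.20 and 2.02 on the log2 scale, and glycerol kinase (GUT1, A11162) by 3.15.

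Of 34 tested genes of the citrate cycle, 2 rose and 13 fell as deposited and 8 rose and 7 fell after scaling, with a median log2 fold change of -0.55 as deposited and 0.04 after scaling. As deposited 5.88% rose and 38.2% fell (6.31 and 26.1% of all tested genes). After scaling 23.5% rose and 20.6% fell (12.6 and 11.8% of all tested genes). Citrate synthase (cit-1, A15933) had 116, 125 and 124 FPKM on PDA and 9.58, 8.06 and 12.95 FPKM on fir wood (log2 fold change -3.48, SE 0.17, limma adjusted p = 7.79e-06). The cytoplasmic malate dehydrogenase MDH1 (A14908) had 273, 354 and 401 FPKM on PDA and 61.7, 60.1 and 66.5 FPKM on fir wood (log2 fold change -2.41, SE 0.15, limma adjusted p = 2.47e-05), with a like fall in its copy A18679 (-2.67). The gene IDH1 (A08098), a subunit of the NAD-dependent isocitrate dehydrogenase, had 161, 146 and 136 FPKM on PDA and 398, 227 and 563 FPKM on fir wood and was one of 2 that rose (log2 fold change 1.33, SE 0.305, limma adjusted p = 0.00683), a count that went to 1 without fir wood replicate 3 and to 0 with the intermediate libraries left out. Of 20 tested genes of the pentose phosphate pathway, 0 rose and 7 fell as deposited and 1 rose and 1 fell after scaling, and 11 fell as deposited without either fir wood replicate 3 or PDA replicate 3. Their share of falls was 35% as deposited and 5% after scaling, against 26.1 and 11.8% of all tested genes. Transketolase (TKL1, A09796) had 272, 284 and 288 FPKM on PDA and 56.8, 46.1 and 57.9 FPKM on fir wood (log2 fold change -2.38, SE 0.12, limma adjusted p = 9.29e-06), the one member that fell on both scales. Both phosphoketolase genes overlapped between groups and were not called. A18876 had 324, 174 and 33.4 FPKM on PDA and 79.2, 34.4 and 119 FPKM on fir wood, and its log2 fold change was -0.84, against -0.15 without PDA replicate 1 and -1.77 without PDA replicate 3, where it was called.

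Genes of the respiratory chain were mostly not called as deposited and mostly rose after median-of-ratios scaling, but not after quantile normalisation. Of 76 tested genes of oxidative phosphorylation, 7 rose and 1 fell as deposited and 42 rose and 0 fell after scaling, with a median log2 fold change of 0.52 as deposited and 1.11 after scaling. Their summed level was 14251 ± 3737 FPKM on fir wood and 8757 ± 941 on PDA. After quantile normalisation 20 of the 76 rose and 0 fell, where 1589 of all 13446 tested genes rose. Voom on worked-back reads called 43 of the 76 higher and 0 lower, where 1945 of all tested genes were higher. Single libraries weighed on the rises as deposited, of which there were 27 without fir wood replicate 2, 16 without PDA replicate 1, 2 without fir wood replicate 3 and 3 with the intermediate libraries left out. With both scaling and those libraries left out, 29 members rose (11.1% of all tested genes did so) and 0 fell (10.2%). The gene cox12 (A01679), a subunit of cytochrome c oxidase, had 539, 429 and 364 FPKM on PDA and 1208, 988 and 1214 FPKM on fir wood (log2 fold change 1.37, SE 0.17, limma adjusted p = 4.34e-04). The ATP synthase gene ATP4 (A07387) had 152, 144 and 134 FPKM on PDA and 318, 229.6 and 387 FPKM on fir wood (log2 fold change 1.09, SE 0.19, limma adjusted p = 0.00199), and was not called without fir wood replicate 3 (log2 fold change 0.92). ADP/ATP translocase (A04150), which exchanges the nucleotides over the inner membrane, had 2347, 2279.98 and 2212 FPKM on PDA and 3601, 2924 and 4195 FPKM on fir wood, was not called as deposited (log2 fold change 0.63), rose after scaling (1.23) and was at -0.51 after quantile normalisation. A mitochondrial phosphate carrier (A01800) had 43.9, 49.3 and 42.5 FPKM on PDA and 160.3, 153 and 179.8 FPKM on fir wood (log2 fold change 1.84, SE 0.11, limma adjusted p = 2.08e-05).

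**Figure D5:**
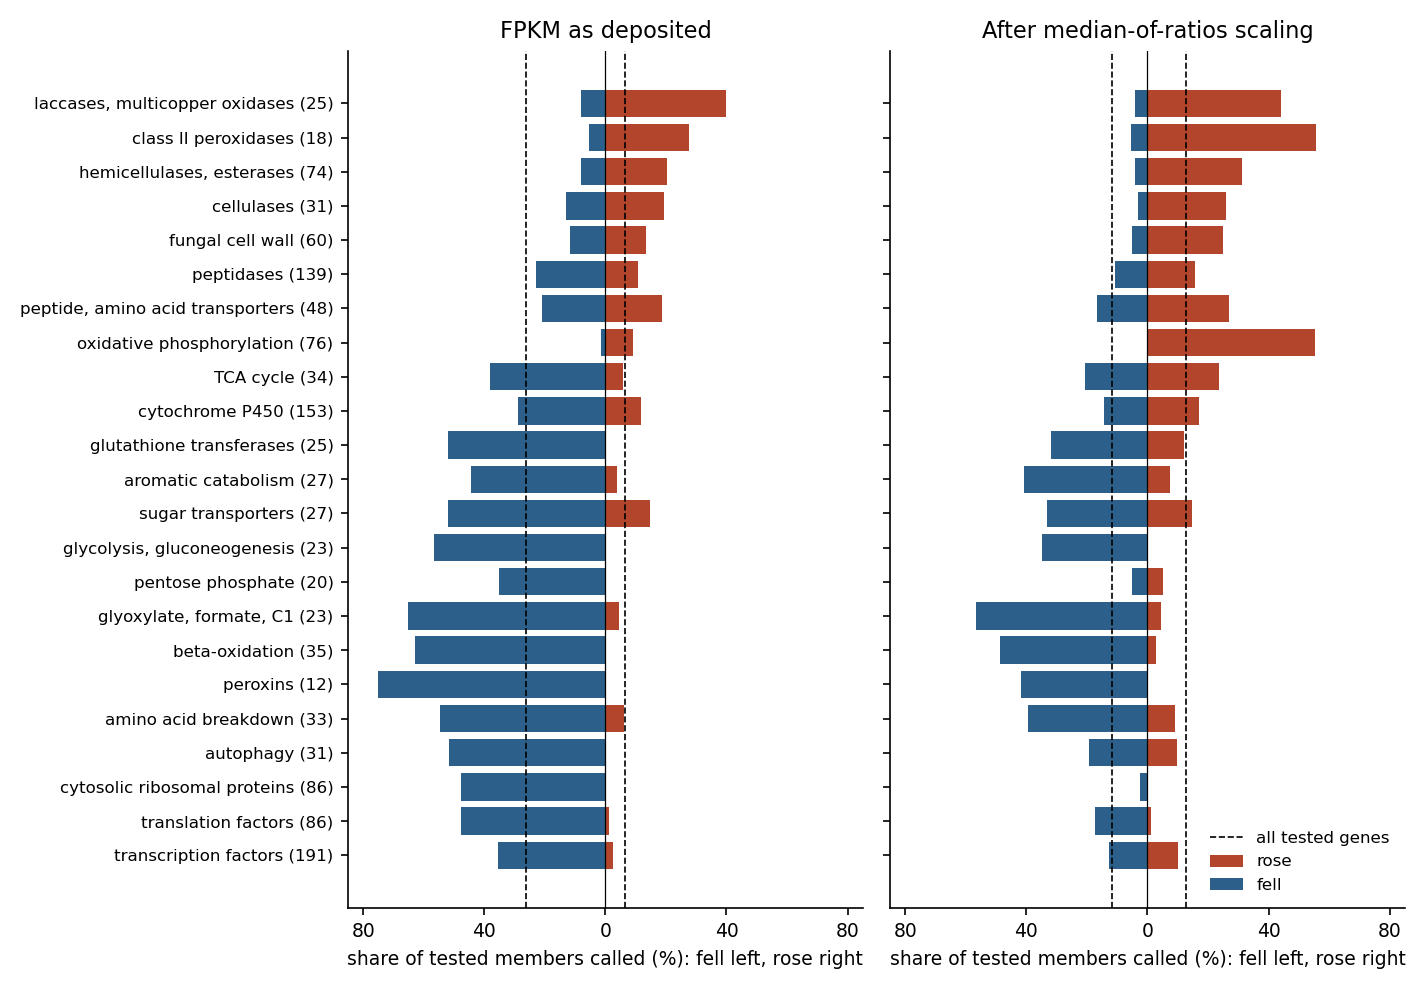
Share of tested members called (%, fell to the left and rose to the right) in 23 gene groups, with the number tested in brackets, as deposited (left panel) and after scaling (right panel). Dashed lines give the shares over all tested genes (6.31 and 26.1% as deposited, 12.6 and 11.8% after scaling). Groups that pass the line for rises in both panels include laccases, peroxidases, hemicellulases, cellulases, fungal wall genes and oxidative phosphorylation. Those that pass the line for falls in both include glyoxylate and one-carbon genes, beta-oxidation, peroxins, sugar carriers, glycolysis and amino acid breakdown. Ribosomal proteins pass that for falls in the left panel alone.

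Several of the groups described here had no rise as deposited. At an unadjusted p below 0.05 in limma, with no fold limit, 0 of 86 cytosolic ribosomal proteins, 0 of 23 genes of glycolysis and gluconeogenesis, 0 of 12 peroxins, 1 of 35 beta-oxidation genes, 1 of 20 pentose phosphate genes, 3 of 25 glutathione transferases, 3 of 63 mitochondrial ribosome genes and 4 of 31 autophagy genes were higher on fir wood. Voom on reads worked back from the FPKM, with TMM scaling, called 0, 0, 0, 1, 1, 3, 1 and 3 of them higher. Of all 13446 tested genes, voom called 1945 higher. In limma, 1758 of all tested genes were higher at an adjusted p below 0.05 with no fold limit, a stricter limit. The limma counts of glutathione transferases and autophagy genes lay near that share and do not set these groups apart.

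Calls among cytosolic ribosomal proteins depended on the scale. Of 86 tested, 0 rose and 41 fell as deposited and 0 rose and 2 fell after scaling, with a median log2 fold change of -0.999 as deposited and -0.41 after scaling. As deposited the number that fell was 19 without fir wood replicate 2, 19 without PDA replicate 3, 63 without fir wood replicate 3 and 66 without PDA replicate 1. Their summed level was 12365 ± 2128 FPKM on fir wood and 25351 ± 4409 on PDA. After quantile normalisation 23 of the 86 fell, where 1579 of all 13446 tested genes fell. Voom on worked-back reads called 2 of the 86 lower, where 2043 of all tested genes were lower. The gene for the acidic protein P2 of the large subunit (A00646) had 1425, 1059 and 696 FPKM on PDA and 19.8, 20.5 and 14.7 FPKM on fir wood (log2 fold change -5.73, SE 0.26, limma adjusted p = 7.15e-06). Of 86 tested translation factors and tRNA synthetases, 1 rose and 41 fell as deposited and 1 rose and 15 fell after scaling. Elongation factor 3 (tef3, A06279), a fungal factor that clears the exit site of the ribosome, had 2825, 2710.2 and 2558 FPKM on PDA and 625, 702 and 546 FPKM on fir wood (log2 fold change -2.12, SE 0.13, limma adjusted p = 2.21e-05), and TEF1 (A18418), which delivers tRNA, had 3766, 3979 and 4106 FPKM on PDA and 1592, 1319.8 and 1852 FPKM on fir wood (log2 fold change -1.33, SE 0.15, limma adjusted p = 2.96e-04). TEF1 was not called after scaling (-0.73). In the mitochondrial ribosome 0 rose and 3 fell as deposited and 1 rose and 0 fell after scaling, of 63 tested.

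Of 191 tested transcription factors, 5 rose and 68 fell as deposited and 19 rose and 24 fell after scaling, with a median log2 fold change of -0.74 as deposited and -0.23 after scaling. The shares after scaling lay near those of all tested genes (12.6% rose and 11.8% fell). RIM101 (A04452), the factor of the response to alkaline pH, had 1584, 1499 and 1418 FPKM on PDA and 109, 103 and 120.4 FPKM on fir wood (log2 fold change -3.75, SE 0.11, limma adjusted p = 1.48e-06). The factor hapX (A04019), which represses iron-using genes when iron is short in Aspergillus, fell by 2.29 on the log2 scale. Of the 5 factors that rose, 3 carried the name CTF1-ALPHA, after the activator of cutinase genes in a plant pathogen. The most abundant of them (A09445) had 62.1, 57.9 and 52.996 FPKM on PDA and 194, 204 and 187 FPKM on fir wood (log2 fold change 1.74, SE 0.104, limma adjusted p = 1.89e-05), and the others (A06688, A09076) rose by 1.49 and 1.35. A calcium pump gene named cta3 (A03378), which exports cations in fission yeast, had 232, 178 and 144 FPKM on PDA and 1.13, 2.101 and 1.01 FPKM on fir wood (log2 fold change -6.26, SE 0.23, limma adjusted p = 3.27e-06). The gene ROD1 (A05279), an arrestin-like protein that directs the uptake of membrane carriers in yeast, had 118, 119.5 and 132 FPKM on PDA and 1.76, 1.92 and 1.75 FPKM on fir wood (log2 fold change -5.46, SE 0.11, limma adjusted p = 7.09e-07). Of 31 tested autophagy genes, 0 rose and 16 fell as deposited and 3 rose and 6 fell after scaling. As deposited 51.6% fell (26.1% of all tested genes). After scaling 9.68% rose and 19.4% fell (12.6 and 11.8% of all tested genes). Both ATG8 genes, which encode the protein that coats autophagosomes, fell, and A12834 had 872, 914 and 958 FPKM on PDA and 203, 182 and 213 FPKM on fir wood (log2 fold change -2.195, SE 0.11, limma adjusted p = 9.04e-06).

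As deposited, wall and surface genes rose and fell in similar numbers, where falls outnumbered rises among all tested genes (6.31% rose and 26.1% fell). Of 60 tested genes for chitin, glucan and other parts of the fungal wall, 8 rose and 7 fell as deposited and 15 rose and 3 fell after scaling, with a median log2 fold change of -0.01 as deposited and 0.44 after scaling. Of these wall genes, 13.3% rose and 11.7% fell as deposited. On both scales their share of rises lay above that of all tested genes and their share of falls below it. After scaling, 12.6% of all tested genes rose and 11.8% fell. The summed level of the 60 wall genes was 3492 ± 161 FPKM on fir wood and 3811 ± 19.2 on PDA. Outside that list, the glycosidase CRH12 (A02669), which links chitin to glucan in yeast, had 289, 327 and 366 FPKM on PDA and 2459, 2557 and 2541 FPKM on fir wood (log2 fold change 2.95, SE 0.12, limma adjusted p = 5.09e-06). A glycosidase named after a fission yeast gene (SPBC21B10.07, A13480), also outside it, had 98.8, 174 and 241 FPKM on PDA and 2661, 1270.1 and 3712 FPKM on fir wood (log2 fold change 3.85, SE 0.45, limma adjusted p = 3.19e-04). Of 79 tested genes for pheromone receptors, which sense mating partners in basidiomycetes, 15 rose and 13 fell as deposited and 18 rose and 9 fell after scaling. Members of one name moved in opposite directions. BAR3 (A01958) had 9.67, 9.53 and 9.67 FPKM on PDA and 144, 89.7 and 202 FPKM on fir wood (log2 fold change 3.71, SE 0.27, limma adjusted p = 4.24e-05), whereas BAR3 (A14616) had 192, 222 and 245 FPKM on PDA and 62.4, 53.3 and 58.8 FPKM on fir wood (log2 fold change -1.89, SE 0.13, limma adjusted p = 2.91e-05). The largest fall among the receptors was that of BAR2 (A16932), with 129, 154 and 169.9 FPKM on PDA and 4.27, 2.04 and 4.899 FPKM on fir wood (log2 fold change -5.05, SE 0.26, limma adjusted p = 9.92e-06). Hydrophobins and other fruiting genes mostly went uncalled: of 15 tested, 1 rose and 1 fell as deposited and 2 rose and 0 fell after scaling. Their median log2 fold change was -0.36 as deposited, and their summed level was 183 ± 14.4 FPKM on fir wood and 176 ± 32.3 on PDA. The fruiting body protein SC3 (A09953), a hydrophobin that coats aerial hyphae, had 11.5, 9.88 and 10.7 FPKM on PDA and 69.9, 86.5 and 60.03 FPKM on fir wood (log2 fold change 2.63, SE 0.15, limma adjusted p = 1.65e-05).

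Some of these genes also stood apart from the other plant substrates, tested in limma on all 12 libraries and adjusted over 13974 genes, of which 24.2% were called between fir wood and poplar wood and 19.9% between fir wood and rice straw. The lactose permease LAC12 (A12161) was at 58.7, 95.7 and 39.5 FPKM on poplar wood and 186, 186 and 187 FPKM on rice straw. It was higher on fir wood than on both (log2 differences 2.996 and 1.39, adjusted p = 1.32e-05 and 0.00155). The undescribed A05787, one of the most abundant genes on fir wood, was at 93.7, 76.1 and 20.01 FPKM on poplar wood and 1661, 1823 and 1781 FPKM on rice straw (log2 differences 8.01 and 2.98, adjusted p = 6.88e-07 and 3.89e-04). The xylanase Xyn30A (A02045) was at 60.8, 49.3 and 56.8 FPKM on poplar wood and 66.6, 43.7 and 55.3 FPKM on rice straw (log2 differences 2.32 and 2.35, adjusted p = 5.95e-06 and 3.80e-06). In the opposite order, the xylanase xynA (A13980) was lower on fir wood, with 13.8, 19.2 and 5.72 FPKM, than on poplar wood, with 99.7, 76.3 and 43.8, and rice straw, with 82.6, 31.9 and 66.3 (log2 differences -2.48 and -2.17, adjusted p = 9.94e-04 and 0.002602).

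Some genes of methanol oxidation were lower on fir wood than on both other plant substrates, and others were not. AOD1 (A10974) was at 1.28, 25.1 and 22.5 FPKM on poplar wood and 299.8, 293 and 296 FPKM on rice straw, and rice straw was thus above PDA (log2 differences of fir wood -2.72 and -7.45, adjusted p = 0.00821 and 1.31e-05). Poplar wood replicate 1 was close to the fir wood libraries. The second AOD1 (A05729) was lower on fir wood as well (log2 differences -2.43 and -7.29, adjusted p = 0.0166 and 1.91e-05). FDH1 (A02035) was at 133, 159.6 and 34.1 FPKM on poplar wood and 239, 364 and 312 FPKM on rice straw (log2 differences -3.75 and -5.48, adjusted p = 7.81e-05 and 5.67e-06). The second FDH1 (A16047) was lower than on poplar wood and not called against rice straw (log2 differences -2.94 and -1.94, adjusted p = 0.00784 and 0.0612). S-(hydroxymethyl)glutathione dehydrogenase (A07864) and S-formylglutathione hydrolase (A04205) were not called against poplar wood (log2 differences -0.12 and -0.05) and were lower than on rice straw (-2.64 and -1.28, adjusted p = 2.20e-05 and 0.0469). AOX1 (A02976) was called against neither (log2 differences -0.61 and 0.75). The peroxisomal catalase CAT1 (A14206) was at 7.93, 17.3 and 17.8 FPKM on poplar wood and 172, 265 and 222 FPKM on rice straw (log2 differences -1.33 and -5.23, adjusted p = 0.00219 and 3.31e-07). Other genes higher on fir wood than on both were tyr1 (A01304), CYP208 (A07914) and ppt1 (A05217), with log2 differences of 3.02, 1.37 and 3.33 from poplar wood and 1.18, 1.35 and 3.5003 from rice straw. The called differences between plant substrates named here also passed the same limits after scaling, except that of A04205 from rice straw.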

How the data were processed

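Messenger RNA of mycelium was sequenced from stranded poly(A) libraries of 12 cultures, of which 6 were compared. The deposited table gave FPKM values for 16059 genes, which the authors computed before deposit. The submitters' processing notes name fastp, HISAT2, HTSeq and DESeq2 without versions, and no genome build is stated in the sources used here. FPKM steps allowed the reads of 16059 of 16059 genes to be worked back as whole numbers within 0.001, with a median gene length of 1413 bp. A count test was not the main result because the table holds FPKM.

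Values were tested as log2(FPKM + 1) with limma 3.58.1 in R 4.3.3, with a mean-variance trend, for genes with 1 FPKM or more in 3 of 6 libraries. P-values were adjusted by Benjamini-Hochberg over all tested genes, and a call needed an adjusted p below 0.05 and a log2 fold change of 1 or more in size. Fold changes on this scale understate the change of low genes. Labels call the cultures biological replicates and do not say more about their origin, so the p-values measure the spread between these samples. The intermediate libraries, near weighted sums of the others, add little to that spread. Without them the limma adjusted p went from 9.76e-07 to 7.26e-04 for gtaA, 1.12e-05 to 0.00136 for CYP208 A07916 and 7.09e-07 to 6.15e-04 for CAT1. How much of this came from having fewer libraries was not tested. Median-of-ratios scaling of the FPKM used genes above 0 in all 6 libraries. In simulated data for this comparison, with 13407 genes in the fit and 50 changed genes of each size, changes of 2 on the log2 scale upward were called for 100% and downward for 96%, changes of 1 upward for 40% and downward for 16%, and 0 of 13207 unchanged genes were called. The simulated libraries were independent, with a fixed level of spread, few and balanced changes and no shift of the median gene. The real libraries differed in this, so these shares are not error rates of the comparison.

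Gene groups were 56 lists found by words in the deposited descriptions. Members and lists were chosen with earlier results of these data known, and the word patterns were trimmed after the descriptions were read. Lists are described by counts and medians, with no set test. Genes were named by a rule: the 12 largest rises and 12 largest falls with a description, a mean of at least 10 FPKM and groups that do not overlap, the most abundant riser and faller of each list, the 10 most abundant described genes of each substrate, the 3 largest rises and falls without a description, and all members of the glyoxylate, pentose phosphate and Cel61a lists. Outside this rule, chosen after their values were seen, were A00011, A01082, A01143, A01680, A01865, A02045, A03057, A03131, A03817, A03835, A04019, A04566, A04997, A05216, A05711, A05787, A06688, A07269, A07387, A08222, A08534, A09076, A09101, A09461, A09505, A10573, A11130, A11162, A11357, A11650, A11651, A12464, A13006, A13256, A13643, A13890, A13980, A14227, A14336, A14662, A14908, A14910, A15256, A15368, A15408, A15468, A15534, A15535, A15552, A15776, A15859, A15933, A16026, A16531, A17335, A18329, A18359, A18679, A18681 and A19457. Libraries on poplar wood and rice straw entered only the contrasts between plant substrates.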

Additional observations from a re-analysis of the deposited data

How the results depend on the processing

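Calls numbered 4355 in all. Leaving out one library at a time gave 4248 to 4428 calls, 821 to 879 higher and 3417 to 3574 lower. The split depended on scaling: 1695 higher and 1582 lower after median-of-ratios scaling, 1589 and 1579 after quantile normalisation, and 1945 and 2043 with voom on worked-back reads. TPM gave 760 and 4311. A pseudocount of 5 gave 2544 calls and 1960 lower, and an adjusted p alone gave 9078 calls, 1758 higher and 7320 lower. Median-of-ratios scaling without the intermediate libraries, an alternative chosen after seeing the data, gave 2858 calls, 1491 higher and 1367 lower. The cause of these moves was not tested, except that dropping the fold limit or adding a larger pseudocount changes the fold criterion by construction. Other settings (another filter, no trend, array weights, all 12 libraries, a pseudocount of 0.1) stayed within 1.5 times on all 3 counts. With the replicate number as a block, 4371 genes were called, 853 higher and 3518 lower. Deviations of same-numbered libraries correlated at 0.037, -0.0043 and -0.034. With 3 libraries a side, the intermediate ones among them, these values cannot tell whether same-numbered cultures shared a batch. The block changed the call of none of the 261 named genes. Of the 229 of them that were called, 1 changed sign in any setting, the undescribed A14961, from a log2 fold change of 1.48 to -0.12 after quantile normalisation. Of the 32 not called, 12 changed sign in some setting. Median-of-ratios scaling ended the calls of 33 of the 229 and added 2. Depth limits the low genes most: at 1 FPKM the median gene had 33.8 to 44.0 reads.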

Other observations

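Several large falls belonged to genes of biosynthesis and repair outside the groups above. Mitochondrial ornithine carbamoyltransferase (A02294), which makes citrulline on the way to arginine, had 129, 121 and 111 FPKM on PDA and 2.19, 1.23 and 1.03 FPKM on fir wood (log2 fold change -5.64, SE 0.18, limma adjusted p = 2.19e-06). Thiamine thiazole synthase (A18593), which builds the thiazole ring of vitamin B1 and is used up in the reaction in yeast, had 427, 376 and 323 FPKM on PDA and 11.2, 12.02 and 8.96 FPKM on fir wood (log2 fold change -5.01, SE 0.15, limma adjusted p = 1.66e-06). MGT1 (A00775), which removes alkyl groups from guanine in DNA, had 176, 211 and 219 FPKM on PDA and 3.06, 1.46 and 3.12 FPKM on fir wood (log2 fold change -5.87, SE 0.22, limma adjusted p = 3.27e-06). The groups did not overlap for any of them, and all 3 fell on both scales. The zinc transporter ZRT2 (A11159) had 265, 532 and 741 FPKM on PDA and 42.8, 48.2 and 31.9 FPKM on fir wood (log2 fold change -3.51, SE 0.36, limma adjusted p = 1.82e-04), with a wide spread on PDA.

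Chaperones were called at shares near those of all tested genes, of which 6.31% rose and 26.1% fell as deposited and 12.6% rose and 11.8% fell after scaling. Of 61 tested chaperones and heat shock proteins, 1 rose and 17 fell as deposited and 9 rose and 8 fell after scaling. The small heat shock protein hsp16 (A00935) had 282, 218 and 146 FPKM on PDA and 18.7, 31.1 and 17.5 FPKM on fir wood (log2 fold change -3.204, SE 0.29, limma adjusted p = 1.09e-04), while a second hsp16 (A14184) had 45.7, 23.1 and 16.6 FPKM on PDA and 57.8, 69.4 and 47.6 FPKM on fir wood and rose (log2 fold change 1.11, SE 0.34, limma adjusted p = 0.0235), a call lost without fir wood replicate 1 or 2, without PDA replicate 2 or 3, and without the intermediate libraries together. Of 41 tested antioxidant genes, 5 rose and 8 fell as deposited and 7 rose and 5 fell after scaling, and 3 rose without fir wood replicate 2, without PDA replicate 1 or without the intermediate libraries. Peroxiredoxin PRX1 (A19334) had 282, 295 and 319 FPKM on PDA and 799, 375 and 1311 FPKM on fir wood (log2 fold change 1.29, SE 0.41, limma adjusted p = 0.0251), a call that held only without fir wood replicate 2 or PDA replicate 3 when single libraries were left out and was lost without the intermediate libraries together. The mitochondrial superoxide dismutase (A02697) had 738, 744 and 742 FPKM on PDA and 237, 138 and 355 FPKM on fir wood (log2 fold change -1.705, SE 0.31, limma adjusted p = 0.00231).

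Housekeeping groups fell at shares near or below that of all tested genes (26.1% as deposited and 11.8% after scaling). Of 164 tested genes of the proteasome and ubiquitin system, 3 rose and 45 fell as deposited and 5 rose and 9 fell after scaling. Of 139 tested genes of the cell cycle and DNA replication, 2 rose and 32 fell as deposited and 9 rose and 8 fell after scaling. Of 110 tested spliceosome genes, 0 rose and 24 fell as deposited and 0 rose and 5 fell after scaling, with a median log2 fold change of -0.602 as deposited and -0.03 after scaling. At an unadjusted p below 0.05 in limma 0 of the 110 were higher. Voom called 0 of them higher, and 1945 of all 13446 tested genes.

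The largest falls without a description were those of A18301, A02239 and A04969. A18301 had 315, 386 and 446 FPKM on PDA and 0.268, 0.534 and 0.384 FPKM on fir wood (log2 fold change -8.09, SE 0.16, limma adjusted p = 7.09e-07), and A02239 had 2219, 3252 and 3967 FPKM on PDA and 13.7, 23.8 and 10.8 FPKM on fir wood (log2 fold change -7.56, SE 0.31, limma adjusted p = 5.08e-06). A04969 had 53.8, 319 and 542 FPKM on PDA and 0.296, 0.915 and 0 FPKM on fir wood (log2 fold change -7.29, SE 0.79, limma adjusted p = 2.14e-04), with PDA replicate 1 far below the other PDA libraries. Its log2 fold change was -8.27 without PDA replicate 1 and -6.61 without PDA replicate 3.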
